A study of Mus musculus with 12 samples.

Results

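AU-rich element binding proteins and the Pumilio protein Pum2 were followed at the level of their own mRNAs in 3T3-L1 preadipocytes during the first hours of adipogenesis. The set held every probe whose transcript accession belonged to one of 8 genes (Zfp36, Zfp36l1, Zfp36l2, Elavl1, Tia1, Tial1, Khsrp and Pum2), which gave 17 probes of 41174 on the array and 8 genes of 18217 with a symbol. 3T3-L1 is a clonal line of mouse embryonic fibroblasts that can be driven to become fat cells. Confluent cells were taken at 0 h, without hormones in medium with newborn bovine serum, or 6 h after a change to a differentiation mixture with fetal bovine serum, insulin at 5 µg/ml, dexamethasone at 1 µM and isobutylmethylxanthine at 0.5 mM, so that the hormones and the serum changed together. The lysates were run on sucrose gradients. The non-polysomal pool held fractions 5 to 7 and the polysomal pool fractions 9 to 11. The 4 groups, 0 h non-polysomal, 6 h non-polysomal, 0 h polysomal and 6 h polysomal, had 3 biological replicates each on 12 one-color arrays. A polysomal signal measures the level of an mRNA in the RNA that sedimented with polysomes and not how much protein was made. In such bulk samples, a change in the number of cells that hold an mRNA and a change in its amount per cell cannot be told apart.

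AU-rich elements are stretches rich in A and U in the untranslated tails of short-lived mRNAs such as those of cytokines and growth response factors. Zfp36 (tristetraprolin) and its relatives Zfp36l1 and Zfp36l2 bind them through CCCH zinc fingers and recruit the deadenylase complex, so that the tail is shortened and the mRNA decays. Khsrp also promotes decay, while Elavl1 (HuR) stabilises many of the same mRNAs. Tia1 and Tial1 (TIAR) repress translation and gather in stress granules, and Pum2 binds another element and represses its targets. Many mRNAs of the early response to growth factors and hormones carry AU-rich elements.

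The question was how the levels of these mRNAs changed with time in each fraction, and whether the change was larger in the polysomes. Values are log2 signals scaled to spike-in RNA, which was added per amount of test RNA. A difference between the fractions thus compares levels relative to the RNA of each pool, and not the share of an mRNA in each. The M-value is the change over time in the polysomal fraction minus that in the non-polysomal fraction, so an M-value of 1 is a 2-fold larger rise, or a smaller fall, on the polysomes. A probe was called where the adjusted p of limma was below 0.05. After this scaling the arrays as a whole shifted: over all probes the median change was 0.54 in the polysomal and 0.04 in the non-polysomal fraction, and the median M-value was 0.49. Quantile normalization gives all arrays the same distribution, so its medians of 0.01, 0.01 and -0.00 were set in advance. The median M-value was 0.06 with 75th percentile scaling, 0.94 with an offset from the dimmer spike-ins and 1.42 with a linear fit of the spike-ins. A difference on the polysomal side is thus to be read against a shift whose size depended on the scaling. Shares of all probes given below hold for the spike-in offset only. Between 55.7% and 60.8% of the probes of an array were well above background, no spot was saturated, and the 6 fibroblast and preadipocyte markers were well above background on all 12 arrays.

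The promoters of Zfp36 and Zfp36l1, relatives that moved in opposite directions, are shown first, because each has an A- and T-rich stretch shortly before its start. The letters are from RefSeq (GRCm38.p6, minus strand of both genes), in capitals where they match a motif. The first and the last line lie at chr7:28379267-28379296 and chr12:80113025-80113054, and the second line at chr7:28379314-28379343.
Zfp36, ATAAAA: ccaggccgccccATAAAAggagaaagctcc
Zfp36, EGR-type site: gagctacgccGCGGGGGCGcgtcccggaag
Zfp36l1, TATAAA: cccaccaaatctTATAAAttgggctttgcg
The motifs were chosen after these sequences had been read. In the 250 bases before the start of all 32851 listed promoters, ATAAAA was found on the gene's strand in 10.2%, TATAAA on the gene's strand in 7.59%, and GCGGGGGCG on either strand in 2.57%. A start in TATAAAA counts for both of the first. Of the 7 member genes with a listed promoter, Zfp36 alone held ATAAAA, Zfp36l1 alone TATAAA, and Zfp36 alone GCGGGGGCG. Also searched, on either strand, were CCAAT, found in 33.8% of all promoters and in Elavl1, Khsrp and Zfp36l1, and TGACG, found in 17.8% and in Khsrp alone. These are letter matches only, and a link to the changes in level was not tested.

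**Figure D1:**
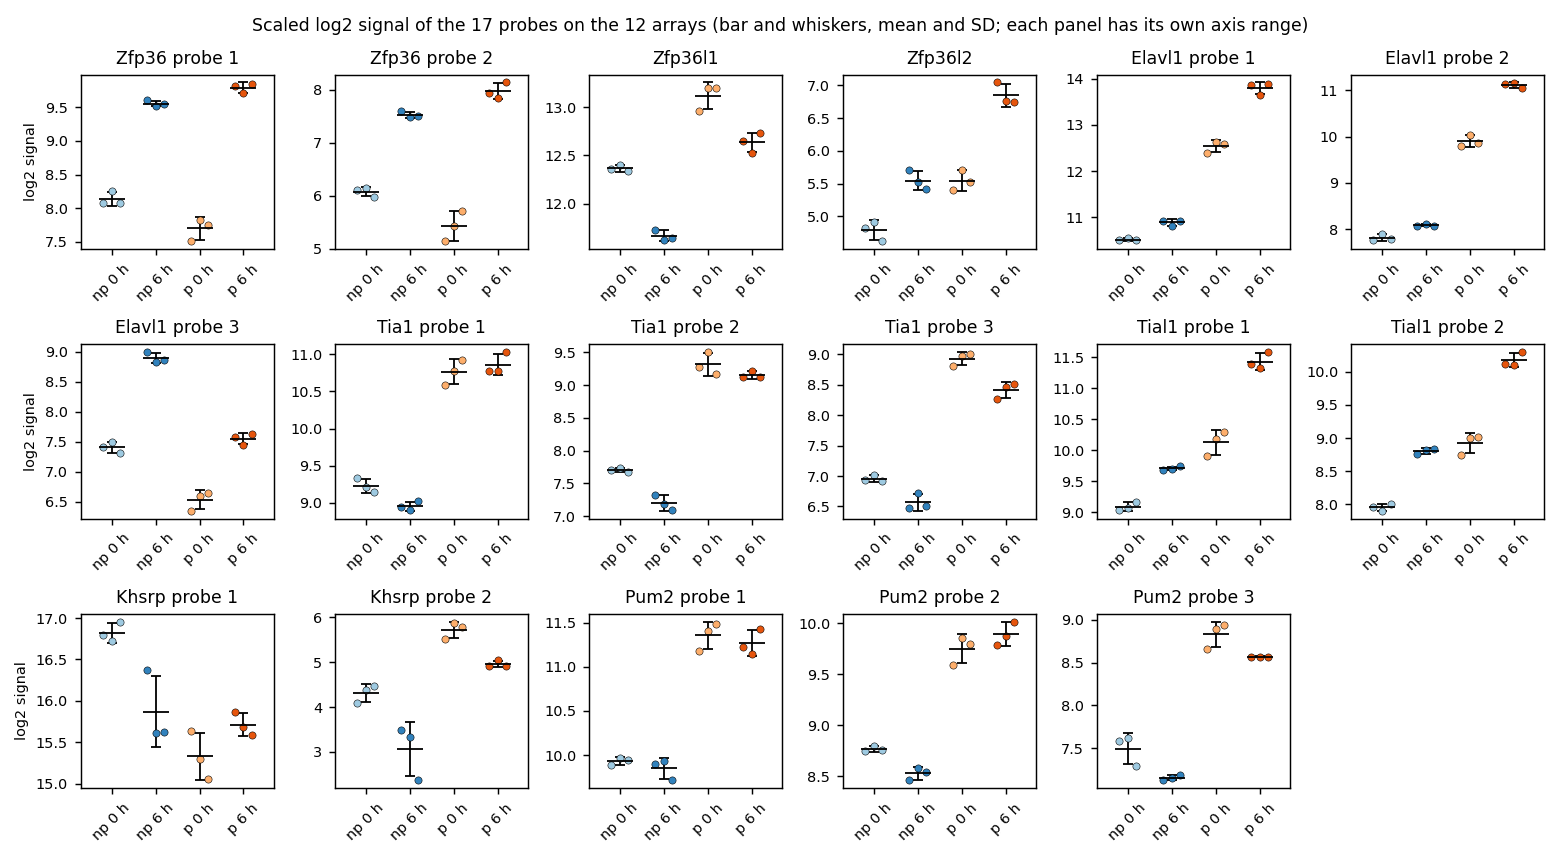
Scaled log2 signal (vertical axis, with its own range in each panel) of the 17 probes in the non-polysomal (np) and polysomal (p) fraction at 0 h and 6 h; points are the 3 arrays of a group, bars the mean and whiskers the SD. Both Zfp36 probes are higher at 6 h in both fractions, Zfp36l1 is lower in both, and the third Elavl1 probe lies higher in the non-polysomal fraction while the other two lie higher in the polysomal one.

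Of the decay-promoting zinc finger proteins, Zfp36 and Zfp36l2 rose and Zfp36l1 fell in both fractions. For Zfp36 the brighter probe (probe 1) read 7.51, 7.83 and 7.75 in the polysomal fraction at 0 h and 9.82, 9.71 and 9.85 at 6 h. Its non-polysomal values were 8.08, 8.26 and 8.08 at 0 h and 9.60, 9.52 and 9.55 at 6 h. Every array at 6 h was therefore above every array at 0 h in the same fraction, and the order of the groups ran from the 0 h polysomal through the 0 h non-polysomal and the 6 h non-polysomal to the 6 h polysomal group, with no overlap between neighbours. The rise was 4.28-fold on the polysomes (log2 change 2.10 ± 0.10 SE, adjusted p = 4.74e-08) and 2.67-fold in the non-polysomal fraction (1.42 ± 0.10 SE, adjusted p = 1.18e-06). The second probe rose by 2.55 and 1.45 on the log2 scale.

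These were high ranks in the array as a whole. The polysomal rise of the Zfp36 probes lay at percentiles 96.2 and 98.2 of all probes, and their non-polysomal rise at percentiles 95.4 and 95.7. Both changes were called under all alternatives, which put the polysomal change of probe 1 between 1.59 and 2.59 and its non-polysomal change between 1.23 and 1.50. The rise was larger on the polysomes, with M-values of 0.68 (SE 0.14, adjusted p = 0.00339) and 1.10 (SE 0.19, adjusted p = 0.00152) and all 3 replicate numbers on the same side. Set against all probes, these M-values lay at percentiles 64.3 and 84.0. Quantile normalization lowered the M-value of probe 1 to 0.25. The M-values were called under 25 of 26 alternatives for probe 1 and 24 of 25 for probe 2. The highest adjusted p of limma among them was 0.0683 and 0.0544.

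Zfp36l1 had 1 probe. It read 12.96, 13.20 and 13.20 in the polysomal fraction at 0 h and 12.65, 12.53 and 12.73 at 6 h. Off the polysomes it read 12.35, 12.40 and 12.34 at 0 h and 11.73, 11.62 and 11.65 at 6 h. The 6 h arrays thus lay below all 0 h arrays in each fraction. The fall was 1.40-fold on the polysomes (-0.48 ± 0.09 SE, adjusted p = 9.01e-04) and 1.62-fold in the non-polysomal fraction (-0.70 ± 0.09 SE, adjusted p = 8.59e-05). No alternative turned either direction, although the polysomal fall came to only -0.08 (adjusted p = 0.301) with the offset set by the dimmer spike-ins. The M-value of 0.22 (SE 0.12, adjusted p = 0.18) was not called.

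Zfp36l2 had 1 probe, of low signal but well above background on all 12 arrays. On the polysomes it read 5.40, 5.71 and 5.53 at 0 h and 7.05, 6.76 and 6.74 at 6 h. Off the polysomes it read 4.82, 4.92 and 4.62 at 0 h and 5.70, 5.52 and 5.41 at 6 h. The groups did not overlap in either fraction. The rise was 2.47-fold on the polysomes (1.30 ± 0.13 SE, adjusted p = 1.13e-05) and 1.69-fold off them (0.76 ± 0.13 SE, adjusted p = 7.65e-04). Its M-value of 0.54 (SE 0.18) passed narrowly, with an adjusted p of 0.0419, was close to the median of all probes, and was called under 12 of 26 alternatives.

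Differences between genes on the same array do not depend on an offset per array. The change of Zfp36 (probe 1) exceeded that of Zfp36l1 by 2.12 in the non-polysomal and 2.58 in the polysomal fraction, on the log2 scale. The change of Zfp36l2 exceeded that of Zfp36l1 by 1.46 and 1.78, and the change of Zfp36 exceeded that of Zfp36l2 by 0.66 and 0.79. The time labels were exchanged within each fraction in an exact permutation test (2-sided, 400 arrangements). In this permutation test all 3 differences, averaged over both fractions, gave p = 0.005. That is the smallest value that 400 arrangements allow, and the labels were exchanged separately in both pools of a culture. The p remained 0.005 after Benjamini-Hochberg adjustment over the 4 pairs compared. Each slide held 1 replicate number of all 4 groups. With time labels exchanged only within a slide, but again separately in each fraction, the exact permutation test gave p = 0.0312 for each of the 4 pairs. This is the smallest value that 64 arrangements allow, and it has the same limit. The difference between Zfp36 and Zfp36l1 was 2.38, 2.29 and 2.36 on the 3 slides. By these values the family diverged on each of the 3 slides, but neither p counts each culture only once. Counted so, 3 cultures per time are too few for a 2-sided permutation p below 0.05. Over the 26 settings the difference between Zfp36 and Zfp36l1 stayed between 1.88 and 2.25 in the non-polysomal and between 2.33 and 3.00 in the polysomal fraction. Several of these settings, such as an offset per array, cannot change such a difference.

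**Figure D2:**
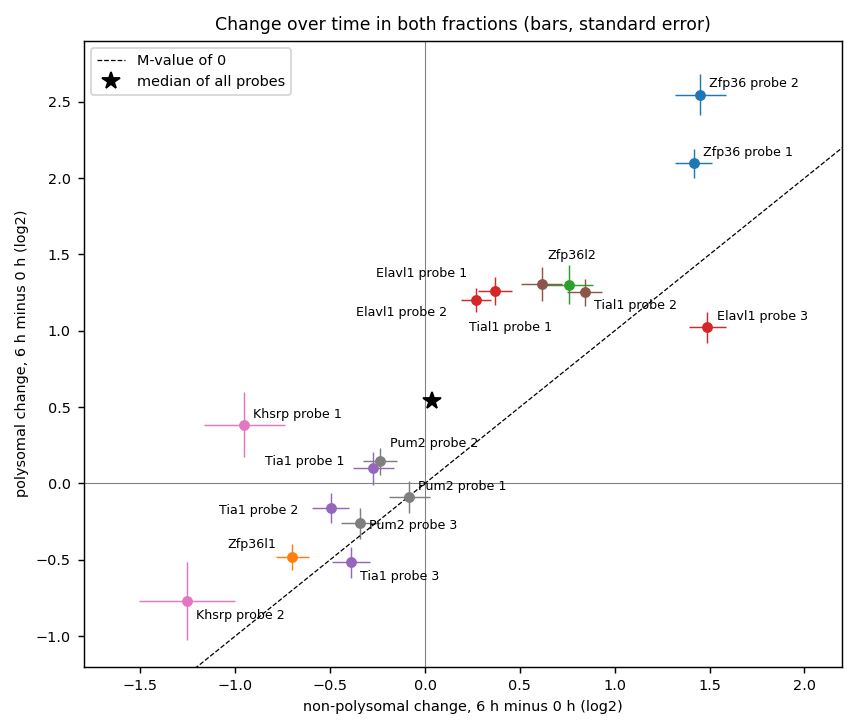
Log2 change from 0 h to 6 h in the non-polysomal (horizontal axis) and the polysomal fraction (vertical axis) of the 17 probes, colored by gene, with standard errors; the dashed line marks an M-value of 0 and the star the median of all probes. Zfp36 lies at the upper right, at 2.10 and 2.55 on the polysomes, and Zfp36l1 at the lower left, at -0.48.

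Elavl1, the stabiliser, rose on the polysomes by all 3 probes. Its brightest probe read 12.39, 12.64 and 12.59 in the polysomal fraction at 0 h and 13.86, 13.65 and 13.88 at 6 h. The non-polysomal arrays gave 10.50, 10.55 and 10.50 at 0 h and 10.93, 10.80 and 10.93 at 6 h. All 4 groups were separate, and both non-polysomal groups lay below both polysomal groups. The polysomal rise was 2.39-fold (1.26 ± 0.09 SE, adjusted p = 1.08e-06) and the non-polysomal rise 1.29-fold (0.37 ± 0.09 SE, adjusted p = 0.00764). The second probe gave 1.20 and 0.27.

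The M-values of these 2 Elavl1 probes were 0.89 (SE 0.13, adjusted p = 5.11e-04) and 0.93 (SE 0.11, adjusted p = 1.72e-04), and they were called under 25 of 26 and 25 of 25 alternatives. Quantile normalization took the first to 0.16, with an adjusted p of 0.135, the highest among its alternatives, and the second to 0.40. At 0 h the polysomal signal exceeded the non-polysomal one 4.06-fold and 4.25-fold, and at 6 h 7.52-fold and 8.12-fold, the latter at percentiles 95.1 and 96.0 of all probes. The third probe, assigned to the same transcript, gave the opposite order of the fractions. It read 7.42, 7.49 and 7.32 in the non-polysomal and 6.35, 6.59 and 6.65 in the polysomal fraction at 0 h, and 9.00, 8.83 and 8.87 against 7.58, 7.45 and 7.63 at 6 h. It was thus higher off the polysomes at both times, by 1.84-fold at 0 h and 2.54-fold at 6 h (adjusted p = 2.04e-05 and 5.42e-07). This probe rose by 1.49 off and by 1.02 on the polysomes, and its M-value was -0.47 (SE 0.14, adjusted p = 0.027), the only called member below 0. With the slide as a block the adjusted p was 0.053. That sign turned to 0.25 with a linear fit of the spike-ins. Since the probes of Elavl1 disagree on the fraction, a single value for the gene's difference between the fractions cannot be given. Its rise over time was common to all 3.

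The translational repressors Tia1 and Tial1, a pair of close relatives, differed in their change over time. Tial1 rose in both fractions by both probes under every alternative, while no Tia1 probe was called higher in either fraction under the spike-in offset. On the polysomes this depended on the scaling: a linear fit of the spike-ins gave called rises of 0.47 for Tia1 probe 1 and 0.33 for probe 2, the dimmer spike-ins a called rise of 0.50 for probe 1, and quantile normalization a called fall of 0.54 for probe 1. The brighter Tial1 probe read 9.90, 10.18 and 10.30 in the polysomal fraction at 0 h and 11.39, 11.32 and 11.59 at 6 h. Off the polysomes it read 9.04, 9.07 and 9.16 at 0 h and 9.68, 9.69 and 9.74 at 6 h. The groups were separate at each comparison, with a rise of 2.47-fold on the polysomes (1.31 ± 0.11 SE, adjusted p = 3.23e-06) and of 1.53-fold off them (0.61 ± 0.11 SE, adjusted p = 0.00103). The second probe rose by 1.25 and 0.84. M-values were 0.69 (SE 0.15, adjusted p = 0.00619) and 0.41 (SE 0.13, adjusted p = 0.0321), the second below the median of all probes.

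The brightest Tia1 probe read 10.59, 10.78 and 10.92 in the polysomal fraction at 0 h and 10.77, 10.78 and 11.03 at 6 h, which overlapped. The non-polysomal arrays gave 9.33, 9.21 and 9.15 at 0 h and 8.95, 8.90 and 9.02 at 6 h. That group was lower at 6 h on every array, but the change of -0.27 (SE 0.11, adjusted p = 0.0715) was not called. The other two probes fell in the non-polysomal fraction by 0.50 and 0.39 on the log2 scale (adjusted p = 0.00195 and 0.00969). On the polysomes the second probe gave -0.16 (95% interval -0.38 to 0.06), and the third fell by 0.52 (adjusted p = 0.00143), although a linear fit of the spike-ins gave 0.018. No Tia1 M-value was called, with 0.37, 0.34 and -0.13. On the same array, the change of Tial1 exceeded that of Tia1 by 0.89 in the non-polysomal and 1.21 in the polysomal fraction (brightest probes). The exact permutation test as above gave p = 0.005, with the same limit. Over the 26 settings, several of which cannot change such a difference, it was 0.81 to 0.98 and 1.09 to 1.24.

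Khsrp, the decay-promoting KH-domain protein, was measured by 2 probes that differed in their changes. They also differed widely in level, with means of 16.82 and 4.32 off the polysomes at 0 h, although both are assigned to the same transcript. Probe 1 read 16.79, 16.72 and 16.96 off the polysomes at 0 h and 16.37, 15.62 and 15.63 at 6 h. On the polysomes it read 15.63, 15.30 and 15.06 at 0 h and 15.87, 15.68 and 15.59 at 6 h. The 0 h non-polysomal arrays were above all others, and the polysomal groups overlapped. Its fall off the polysomes was 1.93-fold (-0.95 ± 0.21 SE, adjusted p = 0.00441), while the polysomal change of 0.38 was not called (95% interval -0.09 to 0.86). The M-value of 1.34 (SE 0.30, adjusted p = 0.00648) was the largest of the 17, at percentile 90.3, but its 3 replicate numbers gave 0.66, 1.48 and 1.87, and quantile normalization left 0.15. The first 6 h non-polysomal array stood above the other two of its group. Probe 2 was dim: it read 5.53, 5.87 and 5.80 on the polysomes at 0 h and 4.91, 5.05 and 4.92 at 6 h, and 4.09, 4.39 and 4.48 off them at 0 h. At 6 h the non-polysomal values were 3.49, 3.33 and 2.37, and only 2 of these 3 arrays were well above background. It fell in both fractions (adjusted p = 0.0243 on and 0.00246 off the polysomes), but the polysomal fall was called under 16 of 25 alternatives only and turned to 0.016 with a linear fit of the spike-ins, and its M-value of 0.49 (SE 0.36) was not called. The probes also disagreed on the fraction: at 0 h probe 1 was 2.81-fold lower and probe 2 was 2.66-fold higher on the polysomes. A single value for the gene's level, M-value or difference between the fractions therefore cannot be given.

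Pum2, which represses targets with a Pumilio element, changed little under the spike-in scaling. Its brightest probe read 11.18, 11.41 and 11.48 on the polysomes at 0 h and 11.22, 11.15 and 11.43 at 6 h. Off the polysomes it read 9.88, 9.96 and 9.95 at 0 h and 9.90, 9.93 and 9.72 at 6 h. The groups overlapped in both fractions, and the changes were -0.09 (95% interval -0.33 to 0.15) and -0.08 (-0.32 to 0.16), although quantile normalization took the first to -0.79. Probe 2, listed for another transcript of the gene, gave 0.14 and -0.24, neither of them called; with the slide as a block the second was (adjusted p = 0.0434). Probe 3 fell slightly in both fractions, by 0.26 and 0.34 on the log2 scale (adjusted p = 0.0476 and 0.0222). On the polysomes this was called under 11 of 25 alternatives, was lost with the slide as a block (adjusted p = 0.0698), and turned to a called rise of 0.27 (adjusted p = 0.0285) with a linear fit of the spike-ins and to 0.14 with the dimmer ones. Of the M-values, -0.01, 0.38 and 0.08, only that of probe 2 was called (adjusted p = 0.0398), under 10 of 25 alternatives. All 3 probes lay below the median M-value of all probes, at percentiles between 19.0 and 38.2.

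Counted over the 17 probes, 8 rose and 4 fell on the polysomes, where 50.7% of all probes rose and 11.7% fell. Off the polysomes 8 rose and 6 fell, where 20.6% of all probes rose and 19.6% fell. By the M-value 9 were higher and 1 was lower, where 32.0% of all probes were higher and 4.01% were lower. The medians of the 17 were 0.38, -0.08 and 0.41, against 0.54, 0.04 and 0.49 over all probes. Probes of 1 gene are not independent of each other, and the comparisons share arrays. The number of M-values called fell from 10 to between 4 and 5 when all 4 arrays of any replicate number were left out, and its split of 9 higher and 1 lower became 2 and 4 with quantile normalization, 4 and 5 with 75th percentile scaling and 16 and 0 with a linear fit of the spike-ins. In that order of scalings, the median M-value of all probes was -0.00, 0.06 and 1.42. The shares above do not apply to these splits.

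**Figure D3:**
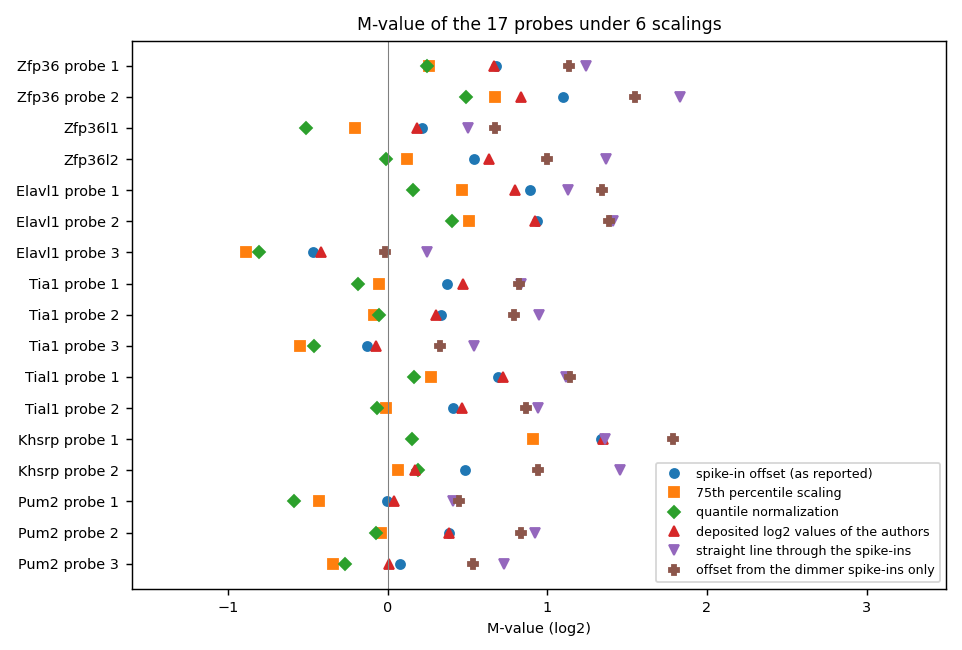
M-value (horizontal axis, log2) of the 17 probes under 6 ways of scaling the arrays, one symbol for each. The whole set moves to the left under the percentile and the quantile scaling and to the right when the dimmer spike-ins or a linear fit are used, and both Zfp36 probes and Elavl1 probes 1 and 2 are above 0 under all 6.

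Under the spike-in scaling, most of these mRNAs gave a higher signal in the polysomal fraction. At 0 h, 13 probes were higher and 4 lower in the polysomal than in the non-polysomal fraction, where 37.0% of all probes were higher and 15.0% lower. At 6 h, 15 were higher and 1 was lower, where 59.9% of all probes were higher and 9.99% lower. Of all probes, however, 11573 were well above background on no array. The medians of the 17 were 1.04 at 0 h and 1.42 at 6 h, near the 0.88 and 1.32 over probes well above background on every array. With 75th percentile scaling the split became 7 higher and 5 lower at 0 h and 6 and 5 at 6 h. Quantile normalization gave 10 and 4 at 0 h and 8 and 5 at 6 h. Over all probes the median differences at 0 h and 6 h were -0.74 and -0.63 with 75th percentile scaling. With quantile normalization they were 0.03 and 0.02, and the shares above do not apply to these splits. Zfp36 was among the exceptions. At 0 h its polysomal signal was 1.36-fold and 1.57-fold below the non-polysomal one (adjusted p = 0.00256 and 0.00182), and this direction held under all alternatives. At 6 h it was 1.18-fold and 1.36-fold above it (adjusted p = 0.0488 and 0.0143; 0.0713 for the first with the slide as a block), but with 75th percentile scaling these log2 differences were -1.07 and -0.87, and with quantile normalization -1.09 and -0.73. Zfp36l1, higher on the polysomes by 1.68-fold at 0 h and 1.96-fold at 6 h, turned to -0.14 and -0.34 on the log2 scale with 75th percentile scaling. Tia1 was 2.89-fold to 3.93-fold higher on the polysomes at 0 h and 3.60-fold to 3.86-fold at 6 h over its probes, which held under all alternatives. Tial1 was 1.95-fold and 2.05-fold higher at 0 h and 2.58-fold and 3.31-fold at 6 h. For Pum2 the 3 probes gave 1.97-fold to 2.69-fold at 0 h and 2.57-fold to 2.68-fold at 6 h. These differences narrowed with the scaling too: with quantile normalization the 6 h log2 differences were 0.023 and 0.0024 for Pum2 probes 1 and 2 (adjusted p = 0.87 and 0.992) and -0.0045 for Tial1 probe 2 (adjusted p = 0.984).

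**Figure D4:**
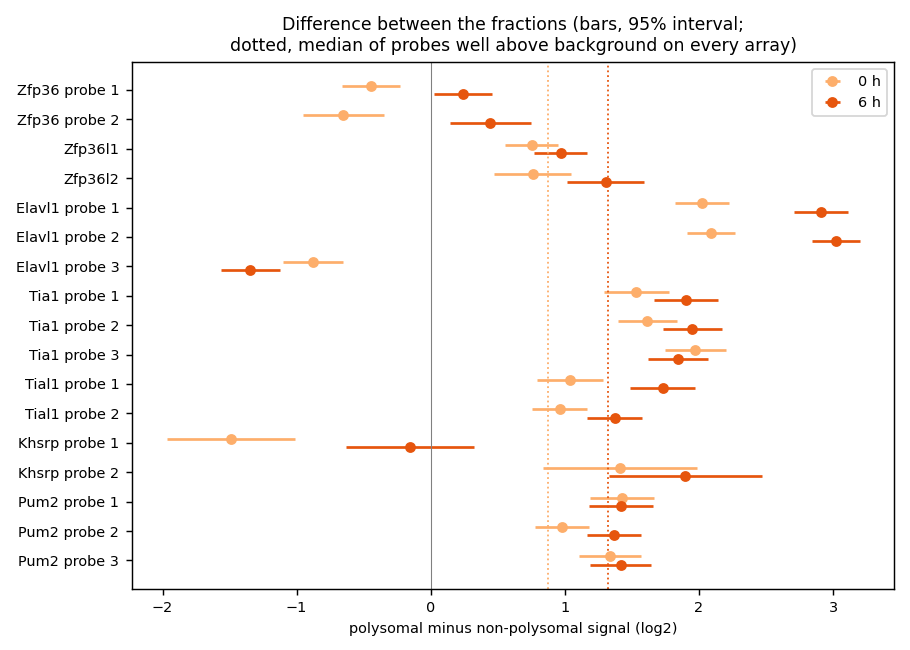
Polysomal minus non-polysomal log2 signal (horizontal axis) of the 17 probes at 0 h and 6 h, with 95% intervals; dotted lines mark the medians over probes well above background on every array, 0.88 at 0 h and 1.32 at 6 h. Zfp36, the third Elavl1 probe and Khsrp probe 1 lie left of 0 at 0 h, and Elavl1 probes 1 and 2 lie farthest to the right at both times.

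The mRNAs on which these proteins act were described by a list of 25 genes with known AU-rich elements, of which 23 were measured by their main probe (the brightest of a gene) and 17 were well above background on all arrays of at least 1 group. This list, like the others here, was chosen with earlier results of these data known. Its counts are therefore no test of AU-rich mRNAs as a class. On the polysomes 19 of the 23 were called higher and none lower, where 52.6% of the main probes of all genes rose and 14.8% fell. Off the polysomes 18 were called higher and 1, Plau, lower, where 24.7% rose and 25.3% fell. Among the 17 genes with signal, 15 rose on and 16 off the polysomes. The other calls, Tnf, Csf2, Il1b and Cxcl2 on and Tnf and Csf3 off the polysomes, were of genes not well above background on all arrays of any group, so the sizes of these changes are not measured. The medians were 2.23 and 1.18, against 0.54 and 0.00 over all main probes. With quantile normalization 15 rose and 1 fell on the polysomes, and 18 rose and 1 fell off them. Under that scaling the median change of all probes was 0.01 on and 0.01 off the polysomes. Fosl1, a subunit of the AP-1 transcription factor, rose 86.9-fold on the polysomes (log2 change 6.44, adjusted p = 2.44e-10), and Dusp1, a phosphatase of MAP kinases, 27.0-fold (4.75, adjusted p = 1.91e-10). Vegfa, the vascular growth factor, rose 16.2-fold (4.02, adjusted p = 5.84e-10) on and by 2.12 off the polysomes. By the M-value 14 were higher, among them Vegfa (1.89), the cytokine Il6 (1.70) and the AP-1 subunit Junb (1.47), and 1 was lower, the prostaglandin synthase Ptgs2 (-0.66, adjusted p = 0.00818), where 40.4% of the main probes were higher and 4.49% lower; with quantile normalization the split was 11 and 3.

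The decay machinery that the zinc finger proteins recruit rose in part. Of 18 deadenylation genes, 14 rose and 2 fell on the polysomes, where 52.6% of all main probes rose and 14.8% fell, and 9 rose and 2 fell off them, where 24.7% rose and 25.3% fell. By the M-value 9 were higher and 2 lower, where 40.4% were higher and 4.49% lower. Largest on the polysomes were Tob2 (3.06), which links deadenylases to their targets, the catalytic subunit Cnot7 (2.17) and the anti-proliferative cofactor Btg1 (2.12). Cnot7 rose equally off the polysomes (2.18), with an M-value of -0.01, whereas Btg2, Cnot9 and Cnot3 had M-values of 1.48, 1.39 and 1.31. Of 16 decapping and decay genes, 11 rose and 4 fell on the polysomes, where 52.6% of all main probes rose and 14.8% fell. Off the polysomes 9 rose and 4 fell, where 24.7% rose and 25.3% fell. On the polysomes Lsm7, of the ring that binds shortened tails, rose by 1.41 and the decapping cofactor Dcp1a by 1.16. Its relative Dcp1b fell there by 1.42 and the exonuclease Xrn1 by 0.87. Their median M-value was 0.01, against 0.51 over all main probes, with 6 higher (Lsm4 at 1.01, the decapping enzyme Dcp2 at 0.86) and 2 lower (Xrn1 at -0.68), so the higher calls were near the share of 40.4% among all main probes. Of 14 measured genes listed for the exosome and its cofactors, 12 rose and 2 fell on the polysomes, where 52.6% of all main probes rose and 14.8% fell. Largest there were Exosc6 (2.05), Exosc1 (1.89) and Wdr61 (1.42). Off the polysomes 8 rose and 2 fell, where 24.7% rose and 25.3% fell. By the M-value 9 were higher, among them Exosc4 (1.21), Dis3l (1.17) and Exosc5 (1.13), and none was lower, where 40.4% were higher and 4.49% lower. The medians on the polysomes were 0.80, 0.56 and 1.03, against 0.54 over all main probes. With quantile normalization the counts on the polysomes became 10 higher and 5 lower for deadenylation, 6 and 6 for decapping and 10 and 2 for the exosome, and all 3 median M-values turned below 0. Over all probes that scaling left medians of 0.01 for the polysomal change and -0.00 for the M-value.

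**Figure D5:**
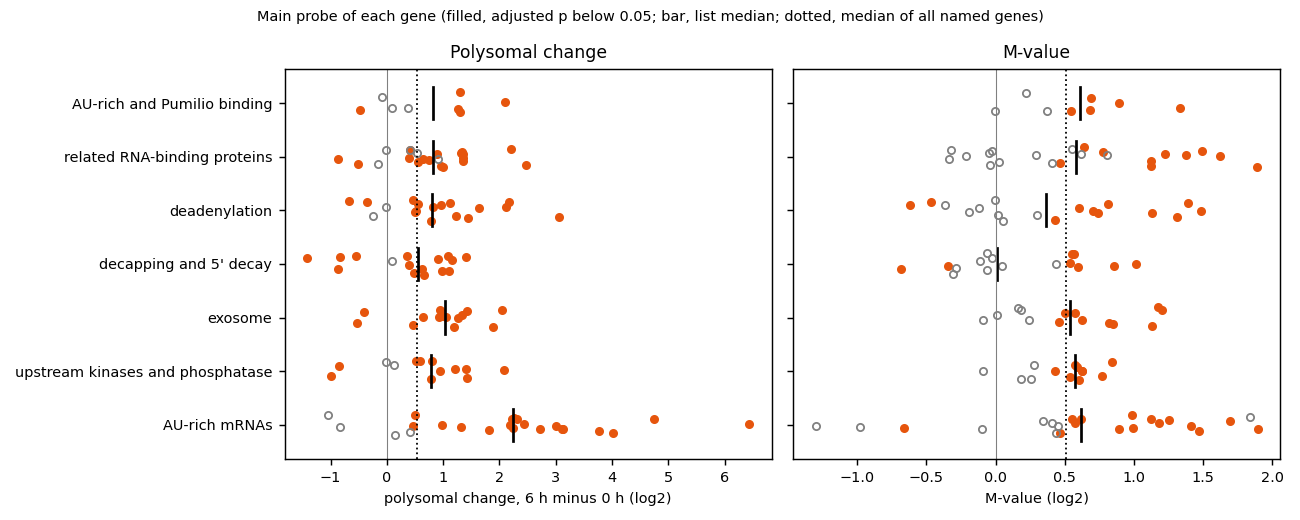
Log2 change on the polysomes (left) and M-value (right) of the main probe of each gene in 7 lists; filled points passed an adjusted p of 0.05, bars are list medians and dotted lines the median over all named genes. The AU-rich mRNAs spread farthest to the right on the polysomes, with a median of 2.23, and the median M-value of the decapping genes is 0.01.

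The profiles nearest to those of the members over the 12 arrays were sought among 11716 genes by the root mean square difference of centred log2 signals. For Zfp36 they were Med8 (0.07) and Tmem248 (0.09), and for Zfp36l1 Vegfc (0.05) and Rsl1 (0.07). For Elavl1 they were Eed (0.05) and Calu (0.05), for Tia1 Mtmr1 and Scamp1 (both 0.09), and for Tial1 Nrbf2 (0.06) and Dhrs3 (0.07). For Pum2 they were Sox9 (0.07) and Akap10 (0.09), while Zfp36l2 (Zscan22 and Ndel1) and Khsrp (Mchr1 and Cfap20dc) had their nearest at 0.12. The 12 arrays fall into 4 groups, so such likeness rests on 4 means.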

How the data were processed

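RNA of 12 samples, 3 in each of 4 groups of time and fraction, was measured on one-color Agilent arrays. The deposited scanner files (Feature Extraction 10.7.1.1) hold intensities: a background-subtracted signal, not normalized between arrays, and the median pixel of spot and background. The authors also deposited log2 values, which equal the log2 median pixel averaged over spots plus a constant per array. Here log2 was taken of the background-subtracted signal, outlier spots were left out, and spots of a probe were averaged. Each array was then shifted by its spike-in level, the mean of 10 transcripts with 32 spots each, every transcript entering as its median. The spike-in offset was 0.05 to 0.18 on 9 arrays and -0.21 to -0.48 on the 6 h polysomal arrays. There the 5 spike-ins with a mean log2 signal below 17 differed from the other arrays by -0.83 and the 5 brighter ones by -0.09, and most member probes lie in the range of the former.

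All 4 groups were fitted together in R 4.3.3 with limma 3.58.1 (lmFit, eBayes, Benjamini-Hochberg adjustment over all probes tested). Symbols were matched by accession, for 64.8% of 41174 probes. Every member probe was reported, and for the other lists the 3 called genes with the largest M-value and polysomal change were named, with the 2 nearest profiles of each member. Some items that this rule names are not reported here. The members and lists were chosen with earlier results of these data known. Differences between paralogs were tested by exact permutation. Depth on an array means signal over background. Intensities at the 75th percentile ran from 224 to 528 on the 12 arrays, and 3 arrays a group limit the precision. Each slide held 1 array of each group and 1 replicate number; the deviations of same-numbered arrays correlated at -0.10 to 0.42, so the number was a block in an alternative only. Alternatives were 75th percentile, quantile and linear spike-in scaling, the authors' log2 values, normexp background correction (offset 50, on the median pixel), leaving out dim probes, keeping outlier spots, limma's trend option, averaging a gene's probes, the replicate block and leaving out arrays; an offset from the dimmer spike-ins and the permutation within slides were added after seeing the data. The M-value test was tested on simulated data with 200 changed of 40808 probes: 40% of changes of 1 and 64% of changes of 2 on the log2 scale were called, with 6 calls among unchanged probes. In the data far more probes were called, 32.0% higher and 4.01% lower, so these shares do not carry over to the real test. Probe positions and probe sequences were not used here, and no promoter of Zfp36l2 was used here.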

Additional observations from a re-analysis of the deposited data

Results flagged for a closer look

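For 10 probes the change over time differed between the polysomal and the non-polysomal fraction by the M-value test (limma, adjusted p below 0.05). Zfp36 had M-values of 0.68 and 1.10 for its 2 probes, Elavl1 0.89 and 0.93 for its first 2 probes and Tial1 0.69 and 0.41. Khsrp probe 1 stood at 1.34, Zfp36l2 at 0.54 and Pum2 probe 2 at 0.38. The third Elavl1 probe was the exception in sign, at -0.47. Over all 41155 probes tested, 32.0% were higher and 4.01% lower, and the median M-value was 0.49, so Zfp36l2, Tial1 probe 2 and Pum2 probe 2 lay near or below the middle of the array.

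Cell type markers were measured on the same arrays. The summed intensity of the 4 macrophage markers off the polysomes ranged from 387 to 423 at 0 h and from 1004 to 1059 at 6 h, and on them from 794 to 916 and from 2468 to 2527, carried by Cd14 and Csf1r; Ptprc and Adgre1 were well above background on 1 array each. The 3 endothelial markers summed to 5.78 to 8.01 in 3 of the groups and to 32.7 to 36.8 in the 6 h polysomal group, carried by Cdh5, while Pecam1 and Kdr were well above background on no array. The 5 adipocyte markers summed to 42903 to 51430 on the polysomes at 0 h and 87746 to 96801 at 6 h, carried by Fabp4. Their part in the changes of the member probes was not tested.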

How the results depend on the processing

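The changes over time of Zfp36, Zfp36l2, Tial1 and Elavl1 on the polysomes were called under all alternatives, and no change off the polysomes turned its sign. The difference between fractions at 0 h was called for all 17 probes with every single array or replicate number left out. The limits are the scaling, which moves every comparison that includes the polysomal fraction, and the signal over background of Khsrp probe 2. With the replicate number, which is also the slide, as a block, 9 probes were called by the M-value, 11 by the polysomal change, 15 by the non-polysomal change, 17 by the difference between fractions at 0 h and 15 at 6 h, against 10, 12, 14, 17 and 16 without the block. The calls that changed were the M-value of Elavl1 probe 3, the polysomal change of Pum2 probe 3, the non-polysomal change of Pum2 probe 2 and the difference between fractions at 6 h of Zfp36 probe 1. Of the 12 arrays, 8 correlated best with an array of their own number. Leaving out a replicate or an array gave 4 to 11 calls by the M-value, 10 to 12 by the polysomal and 10 to 16 by the non-polysomal change, 17 to 17 between fractions at 0 h and 14 to 16 at 6 h. Quantile normalization left 6 M-value calls, and a linear fit of the spike-ins gave 16. Shares over all probes under these alternatives are not given here. With 1 mean per gene, 5 of 8 genes were called by the M-value, 6 by the polysomal and 8 by the non-polysomal change, 7 between fractions at 0 h and 8 at 6 h; here fewer features were counted. The causes of the other shifts were not tested. Normexp was run on the median pixel.

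With 75th percentile scaling, the sign turned for the M-value of Zfp36l1 (-0.21), Tia1 probe 1 (-0.051), Tia1 probe 2 (-0.087), Tial1 probe 2 (-0.0119), Pum2 probe 2 (-0.039) and Pum2 probe 3 (-0.34), the polysomal change of Tia1 probe 1 (-0.39), Khsrp probe 1 (-0.10) and Pum2 probe 2 (-0.34), the difference between fractions at 0 h of Zfp36l1 (-0.14) and Zfp36l2 (-0.13) and the difference between fractions at 6 h of Zfp36 probe 1 (-1.07), Zfp36 probe 2 (-0.87), Zfp36l1 (-0.34) and Zfp36l2 (-0.0057). With quantile normalization, the sign turned for the M-value of Zfp36l1 (-0.51), Zfp36l2 (-0.00698), Tia1 probe 1 (-0.18), Tia1 probe 2 (-0.0562), Tial1 probe 2 (-0.066), Pum2 probe 2 (-0.073) and Pum2 probe 3 (-0.27), the polysomal change of Tia1 probe 1 (-0.54), Khsrp probe 1 (-0.95) and Pum2 probe 2 (-0.39) and the difference between fractions at 6 h of Zfp36 probe 1 (-1.09), Zfp36 probe 2 (-0.73), Zfp36l1 (-0.39) and Tial1 probe 2 (-0.0045). With a linear fit of the spike-ins, the sign turned for the M-value of Elavl1 probe 3 (0.25), Tia1 probe 3 (0.54) and Pum2 probe 1 (0.41) and the polysomal change of Tia1 probe 2 (0.33), Tia1 probe 3 (0.018), Khsrp probe 2 (0.016), Pum2 probe 1 (0.25) and Pum2 probe 3 (0.27). With the offset from the dimmer spike-ins, the sign turned for the M-value of Tia1 probe 3 (0.33) and Pum2 probe 1 (0.45), the polysomal change of Tia1 probe 2 (0.24), Pum2 probe 1 (0.31) and Pum2 probe 3 (0.14) and the difference between fractions at 6 h of Khsrp probe 1 (0.22). With the authors' log2 values, the sign turned for the M-value of Pum2 probe 1 (0.039). With normexp, the sign turned for the M-value of Pum2 probe 1 (0.013) and Pum2 probe 3 (-0.013). With the mean of a gene's probes, given here under the brightest, the sign turned for the M-value of Pum2 probe 1 (0.15), the polysomal change of Tia1 probe 1 (-0.19) and Khsrp probe 1 (-0.19) and the difference between fractions at 6 h of Khsrp probe 1 (0.87). The difference between fractions at 6 h of Khsrp probe 1 ranged from -0.28 to 0.093 over the left-out arrays, turning to 0.016 without replicate 1 and to 0.093 without 6 h non-polysomal replicate 1. The M-value of Pum2 probe 1 turned to 0.11 without replicate 2, 0.018 without 0 h non-polysomal replicate 1, 0.021 without 0 h polysomal replicate 2, 0.056 without 0 h polysomal replicate 3, 0.019 without 6 h non-polysomal replicate 1, 0.037 without 6 h non-polysomal replicate 2, 0.018 without 6 h polysomal replicate 1 and 0.054 without 6 h polysomal replicate 2. The M-value of Pum2 probe 3 turned to -0.0604 without replicate 1 and -0.00702 without 0 h polysomal replicate 1.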

Other observations

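Related RNA-binding proteins, whose targets were not examined here, were covered by 22 genes. Of these, 20, all but Elavl3 and Elavl4, were well above background on all arrays of a group. Of the 22, 15 were called higher and 2 lower on the polysomes, where 52.6% of all main probes were higher and 14.8% lower. By the M-value 10 were higher and none was lower, near the 40.4% and 4.49% of all main probes. With quantile normalization the M-values split into 7 and 7, where the median of all probes was -0.00. Zc3h12a, an RNase that degrades inflammatory mRNAs, rose 5.57-fold on the polysomes (adjusted p = 1.31e-07), the cold shock protein Ybx3 4.63-fold and the stress granule protein G3bp1 2.56-fold. The largest M-values were those of Ybx3 (1.89) and of the poly(C)-binding proteins Pcbp2 (1.62) and Pcbp1 (1.49). Hnrnpd (AUF1), another AU-rich element binder, fell by 0.93 on the log2 scale off the polysomes and gave -0.16, not called, on them. Fubp1 and Fubp3, relatives of Khsrp, had M-values of 1.38 and 1.12. Hnrnpd, Fubp1 and Fubp3 were chosen after their values had been seen.

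Of 13 kinases, phosphatases and adaptors that act on Zfp36 or its relatives or upstream of them, 9 rose and 2 fell on the polysomes, where 52.6% of all main probes rose and 14.8% fell. By the M-value 9 were higher and none was lower, where 40.4% were higher and 4.49% lower. Map2k3, which activates p38, rose 4.22-fold (adjusted p = 1.25e-08) and the phosphatase subunit Ppp2ca 2.67-fold. The largest M-values were those of Mapk14 (0.84), which encodes p38 alpha, Akt1 (0.77) and Map2k6 (0.62). With quantile normalization their polysomal changes split into 5 and 5 and their M-values into 2 higher and 6 lower. The medians of all probes under that scaling were 0.01 and -0.00.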
